A study of Rattus norvegicus with 241 samples.

Results

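The nuclear-encoded genes of the mitochondrial respiratory chain were followed in rat mammary gland. A gene was taken as a member when its symbol began, ignoring case, with NDUFA, NDUFB, NDUFC, NDUFS or NDUFV and a number, with SDHA to SDHD, with UQCR, with COX4 to COX8, or with ATP5. This gave 93 of the 21691 genes in the count tables. Of these, 83 were subunits: 36 of complex I (NADH dehydrogenase), 4 of complex II (succinate dehydrogenase), 8 of complex III (the cytochrome bc1 complex), 19 of complex IV (cytochrome c oxidase, with NDUFA4 and NDUFA4L2 counted here) and 16 of complex V (ATP synthase). The others were 4 assembly factors of complex II (SDHAF1 to SDHAF4), the ATP synthase inhibitor ATP5IF1, the related genes DMAC2 and DMAC2L, and 3 entries that are copies of a subunit gene. The rule uses symbols alone, and was set with earlier results of these data known. Between 77 and 86 members passed the filter on low counts, depending on the table.

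The respiratory chain passes electrons from NADH and succinate to oxygen and uses the proton gradient this builds to make ATP. A few subunits are encoded in mitochondrial DNA, and the larger number described here are encoded in the nucleus and imported. Several complex IV subunits come as pairs, a common form and a form restricted to certain tissues: COX4I2 and NDUFA4L2 are known for contractile and oxygen-responsive cells, COX6A2, COX7A1 and COX8B for muscle and brown fat, and COX6B2 for testis.

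The 241 libraries came from virgin rats unless named as parous, and TGFBRi is the TGFβ receptor inhibitor LY2157299 (galunisertib; the labels write LY22157299), given by mouth at 75 mg/kg 2 times a day against vehicle. Young ACI rats (18 rats, dosed at about 35 days of age, 10 days of dosing) were taken 0, 7 or 14 days after the last dose, and young SD rats (8 rats, dosed at about 24 days of age, 10 days of dosing) at day 0. The labels call 2 of the 4 young SD TGFBRi rats weak responders (rats 1 and 2) and 2 strong responders (rats 3 and 4). Day 7 vehicle rat 3 of the young ACI rats is a control by the titles and characteristics of its libraries, but its basal and luminal libraries are described as from a treated animal, and it was kept as vehicle. NMU SD rats (9 rats, first dose at 21 days of age, 10 days of dosing) had all received 50 mg/kg of the carcinogen NMU and were taken at day 87. The vehicle rats bore tumors, and TGFBRi rats were tumor-bearing or tumor-free. TGFBRi and tumor state therefore cannot be told apart where tumor-free TGFBRi rats are compared with vehicle. Tumors of 6 NMU rats were sorted as well. Adult ACI rats (16 rats, 18 to 24 weeks old, 10 days of dosing) were virgin or parous and were taken at day 0. E2 ACI rats (17 rats, first dose at 38 days of age, 21 days of dosing) had or lacked a 37 mg estradiol (E2) pellet, and every vehicle rat with E2 bore a tumor, so E2 and tumor cannot be told apart in that arm. Tumor-free TGFBRi rats with E2 likewise differed from vehicle rats with E2 in both drug and tumor state. By the paper, the E2 ACI rats were taken at the end of the tumor experiment, months after the last dose. Sorted fractions were basal (CD24+CD29high), luminal (CD24+CD29low) and CD45+ cells, sequenced in bulk, and basal and luminal sorts of young ACI (6) and SD (9) rats as single cells at day 0, and whole glands of 9 young SD rats were also sequenced as single cells at day 0. These single-cell rats were likewise dosed for 10 days, at about 35 (ACI) or 24 (SD) days of age. In bulk fractions and in libraries summed over cells, fewer cells of a type and less RNA per cell cannot be told apart.

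Bulk libraries held from 4194912 to 52314784 reads on genes, sorted single-cell libraries from 563 to 3853 cells, and whole-gland libraries from 7900 to 16424 cells. Sorted libraries shared at most 7 cell barcodes and whole-gland libraries at most 284 (2.4% of the smaller library). All 5 fibroblast markers in the table were found in the SD basal bulk fraction, at 34417 to 53453 CPM of reads in vehicle rats, so that fraction was not epithelium alone. Bulk values below are normalized counts, tested with limma on log2(value + 1), and single-cell values are CPM, counts scaled to the library's total of UMIs, tested with edgeR's quasi-likelihood test on summed UMIs. A member was called at a Benjamini-Hochberg adjusted p under 0.05 in bulk and 0.1 in single cells, over all genes tested. Errors of log2 differences are standard errors, and edgeR's log2 differences carry TMM scaling, so they can differ from the ratio of the CPM values.

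The start regions of some members named in the results are shown first, with the letters of 2 motifs known from such genes in capitals: GCGCA and GCGC parted by 1 base (NRF1) and CCGGAAG (GABPA), each searched on both strands. The windows are RefSeq promoters of build GRCr8, 250 bases before to 50 after the gene start, read on the gene's strand. COX4I1 rose and NDUFS1 fell with TGFBRi in sorted ACI cells, and COX5A and COX6B2 differed between luminal and basal cells in 3 and 4 of 4 comparisons. SDHA was 1 of 3 members called with E2 in luminal cells of TGFBRi rats (3.61% of members, against 4.58% of all genes).
COX4I1 (chr19:65630133-65630432, plus strand): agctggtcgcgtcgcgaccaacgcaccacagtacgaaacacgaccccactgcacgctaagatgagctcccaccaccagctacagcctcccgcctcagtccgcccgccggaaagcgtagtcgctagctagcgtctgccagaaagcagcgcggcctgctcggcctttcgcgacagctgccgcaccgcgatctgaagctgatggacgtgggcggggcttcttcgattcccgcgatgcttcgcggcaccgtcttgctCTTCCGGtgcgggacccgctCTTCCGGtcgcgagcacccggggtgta
NDUFS1 (chr9:72073556-72073855, minus strand): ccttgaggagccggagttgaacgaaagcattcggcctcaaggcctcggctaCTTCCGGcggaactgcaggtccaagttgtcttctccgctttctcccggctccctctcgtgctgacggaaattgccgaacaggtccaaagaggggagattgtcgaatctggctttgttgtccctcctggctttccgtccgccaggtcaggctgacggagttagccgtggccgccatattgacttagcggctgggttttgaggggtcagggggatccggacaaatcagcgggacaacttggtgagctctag
SDHA (chr1:30764303-30764602, plus strand): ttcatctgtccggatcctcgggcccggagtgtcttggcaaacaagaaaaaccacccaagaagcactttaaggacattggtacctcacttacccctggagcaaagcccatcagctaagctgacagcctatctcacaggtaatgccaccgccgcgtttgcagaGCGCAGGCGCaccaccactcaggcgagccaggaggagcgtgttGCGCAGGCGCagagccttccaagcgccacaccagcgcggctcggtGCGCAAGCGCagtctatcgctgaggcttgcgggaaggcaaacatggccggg
COX5A (chr8:66818034-66818333, plus strand): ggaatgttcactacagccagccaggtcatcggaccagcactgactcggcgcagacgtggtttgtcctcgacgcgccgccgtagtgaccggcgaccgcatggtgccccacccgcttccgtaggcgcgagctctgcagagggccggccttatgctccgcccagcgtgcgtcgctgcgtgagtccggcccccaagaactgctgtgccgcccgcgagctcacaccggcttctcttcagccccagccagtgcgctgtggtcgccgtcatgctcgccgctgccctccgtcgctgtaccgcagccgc
COX6B2 (chr1:78122621-78122920, plus strand): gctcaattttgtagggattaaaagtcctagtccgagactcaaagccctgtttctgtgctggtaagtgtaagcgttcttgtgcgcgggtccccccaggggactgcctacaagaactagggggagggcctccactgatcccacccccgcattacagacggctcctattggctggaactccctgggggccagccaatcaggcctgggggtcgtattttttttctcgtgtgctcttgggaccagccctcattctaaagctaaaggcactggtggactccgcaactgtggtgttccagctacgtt
COX4I1 holds 2 GABPA matches, NDUFS1 holds 1 and SDHA holds 3 NRF1 matches, whereas COX5A and COX6B2 hold neither motif. Of the 83 subunits 73 had a window. NRF1 letters stood in 14 of them (19.2%, against 4.25% of all 33469 windows) and GABPA letters in 21 (28.8% against 8.75%). The letters AAGATGG (YY1) stood in 19 (26.03% against 7.01%) and ACGTG (HIF) in 20 (27.4% against 19.3%). These are matches of letters and not binding sites.

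Whether the chain differs between the epithelial lineages was asked first, in vehicle rats. COX5A, a subunit of complex IV, was higher in luminal than in basal cells in 3 of 4 comparisons, and COX6B2 was higher in basal cells in 4 of 4. In sorted single-cell libraries, COX5A stood at 234, 238 and 204 CPM in ACI basal and at 513, 458 and 548 CPM in ACI luminal libraries. In SD it stood at 248, 389 and 207 CPM in basal and at 748, 817 and 746 CPM in luminal libraries. No basal library reached a luminal one. The basal minus luminal difference was -1.18 ± 0.10 in ACI and -1.63 ± 0.23 in SD on the log2 scale, past the edgeR threshold in both.

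COX6B2, the testis form of a complex IV subunit, ran the other way. It was at 24.0, 17.4 and 17.6 CPM in ACI basal libraries (522, 183 and 154 UMIs), whereas the luminal ones held 6, 0 and 7 UMIs. In SD it was at 13.2, 18.3 and 8.14 CPM in basal libraries (at least 68 UMIs in each), and the luminal ones held 5, 1 and 3 UMIs. Both differences passed the edgeR threshold, and no size is given for them because the luminal libraries held so few UMIs. The bulk fractions showed the same order: in young SD rats COX6B2 was at 272, 350, 242 and 234 normalized counts in basal and 77.6, 32.1, 69.4 and 16.8 in luminal cells (2.68 ± 0.50, limma adjusted p = 0.0003). In young ACI rats it ran from 265 to 3469 in the basal and from 5.48 to 55.5 in the luminal fraction of 9 rats (5.32 ± 0.63). No luminal sample reached a basal one in either strain.

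**Figure D1:**
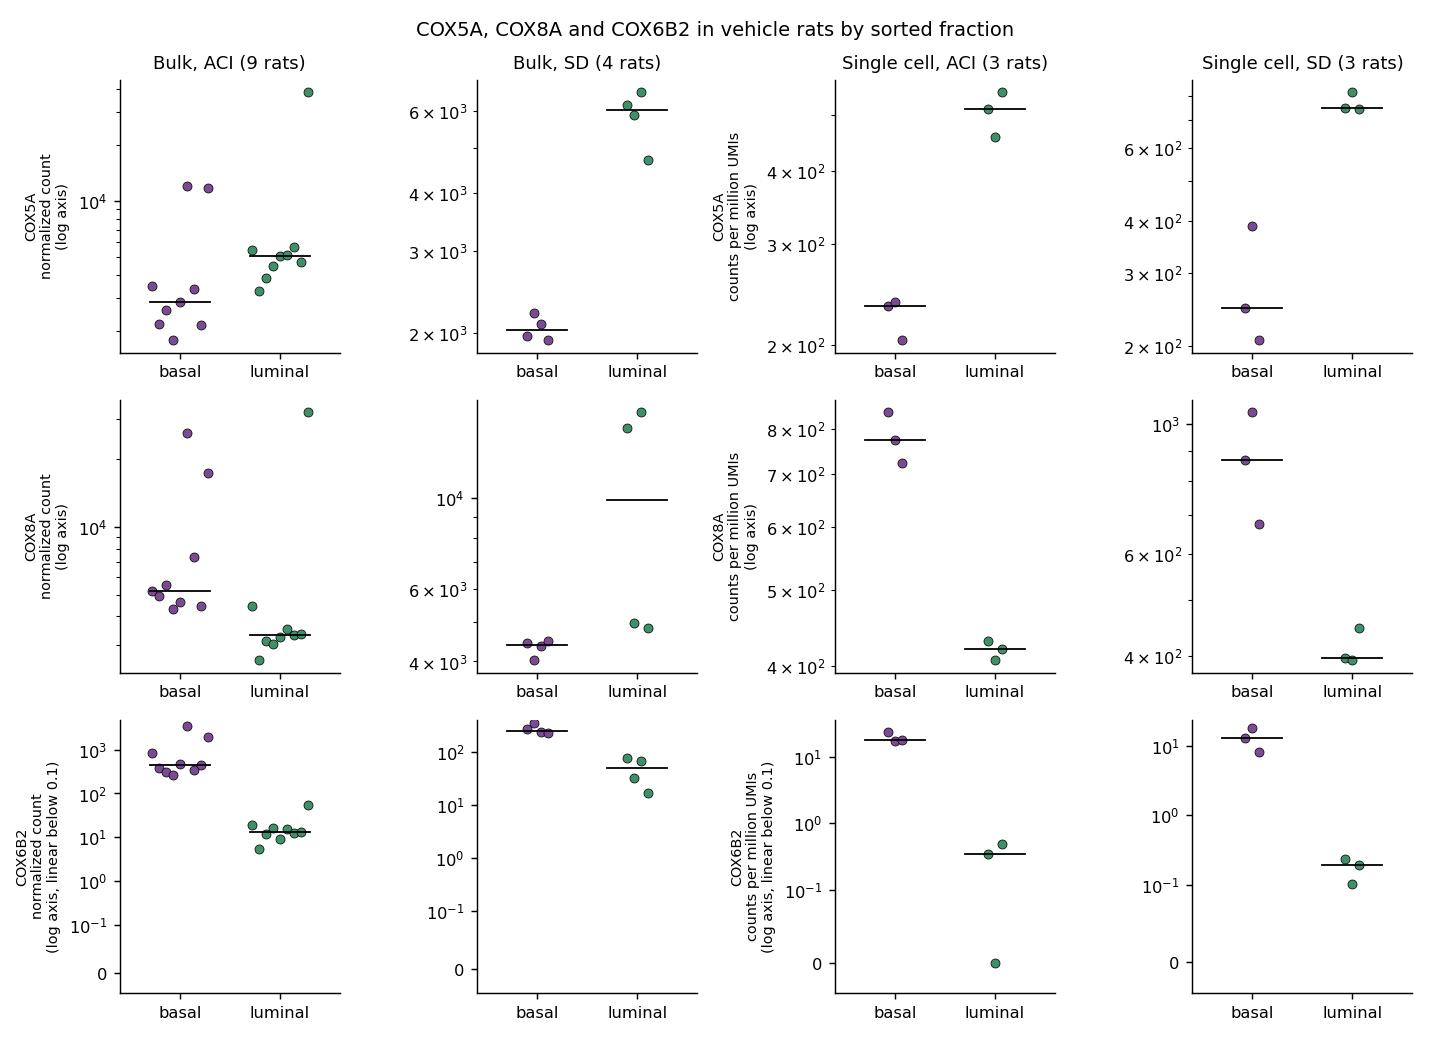
Levels of COX5A, COX8A and COX6B2 in basal and luminal fractions of vehicle rats, as normalized counts (bulk) or CPM (sorted single cells); each point is 1 rat and each line a median, on log axes. COX5A lies higher in luminal cells in the SD bulk and both single-cell panels, COX6B2 lies higher in basal cells in every panel, and COX8A is higher in basal cells in the single-cell panels, while 1 or 2 rats stand far above the others in the bulk panels.

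A further 3 complex IV isoforms held few UMIs in either fraction. COX4I2 counted 19, 1 and 2 UMIs in the ACI basal libraries of vehicle rats and 0, 0 and 1 in the luminal ones, and 15, 32 and 3 against 1, 1 and 0 in SD. NDUFA4L2 counted 4, 0 and 0 UMIs against 0 in every luminal library in ACI, where it was not called (edgeR adjusted p = 0.15) and a difference was not detectable at this depth, and 1, 14 and 5 against 0 in SD. COX6A2 counted 19, 4 and 0 against 0, 1 and 0 in ACI, and 6, 4 and 1 against 0 in SD. The 6 pericyte markers summed to 0.2 to 2.3 CPM in the same ACI and 2.9 to 26.7 CPM in the same SD basal libraries, and to 4.59 to 6.44 CPM and 3.39 to 5.23 CPM in the luminal ones. Their part in the counts of these isoforms was not tested.

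Over all 85 members, isoforms included, the median difference in sorted ACI libraries was 0.22 against 0.01 over all genes. Of these members 33 were higher in basal and 5 in luminal cells (44.7% of members called). Of all genes 65.5% were called, 33.5% as higher in basal and 32.1% as higher in luminal cells. The basal side held 13 members of complex I, 9 of complex V, 7 of complex IV and 4 of complex II. COX8A, the common form of a small complex IV subunit, was at 839, 773 and 724 CPM in basal and 431, 407 and 421 CPM in luminal libraries (0.88 ± 0.15). Without ACI rat 1, 25 members were called.

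In sorted SD libraries 8 members were higher and 3 lower in basal cells (41.6% of all genes called, member median -0.01). COX5A, NDUFA6 and NDUFC2, the last 2 being accessory subunits of complex I, were lower in basal cells of both strains: NDUFC2 differed by -0.33 in ACI and -0.68 in SD, and NDUFA6 by -0.35 and -0.55. COX8A was at 869, 1048 and 674 CPM against 398, 394 and 448 CPM (0.89 ± 0.29). The fractions come from the same rats, and with the rat as a block 27 members were called, 15 of them higher in basal cells (53% of all genes called). Without any one of the 3 rats, 5 or 6 were called. With total UMI counts as library sizes the calls were 14 higher and 1 lower (38.9% of all genes).

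Bulk fractions gave a larger and less even difference in SD rats. There 46 of 78 members were lower and 4 higher in basal cells (50.1% of all genes called, member median -1.11 against 0.13). UQCR11, a small complex III subunit, was at 1977, 1871, 1861 and 2063 normalized counts in the basal and at 21242, 3935, 17801 and 4860 in the luminal fraction (-2.25 ± 0.49). Luminal rats 1 and 3 were high for most subunits, and the members took 3.23% and 3.12% of gene reads in them against 1.64% and 1.61% in rats 2 and 4. Ribosomal protein genes took 5.93% and 8.45% against 3.76% and 3.89%. Without rat 1, 27 members were called, and without rat 3, 20.

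COX5A did not show this split between rats. Its basal values were 1977, 2208, 2094 and 1932, and its luminal values in the same SD rats 6154, 5870, 6570 and 4710 (-1.50 ± 0.24, limma adjusted p = 0.0001). NDUFS1, the largest core subunit of complex I, went the other way, with basal values of 721, 892, 846 and 852 and luminal values of 292, 443, 221 and 385 (1.35 ± 0.30, adjusted p = 0.0011). Neither gene's fractions overlapped.

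In young ACI rats 4 of 80 members were higher in the basal fraction, COX6B2, COX6A2, COX4I2 and NDUFA4L2, and DMAC2 was lower (34.1% of all genes called; member median 0.09 against 0.14). With the rat as a block 19 were called, 15 of them higher in basal cells (47.5% of all genes). In 1 rat, day 7 vehicle rat 3, whose labels disagree on treatment, COX5A reached 38311 normalized counts in the luminal and 11690 in the basal fraction, and in day 14 vehicle rat 1 it reached 11975 in the basal fraction. Without day 7 vehicle rat 3, 5 members were called.

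Of the other genes of the pathway, 10 of 17 glycolysis enzymes were higher and 1 lower in basal cells in young ACI bulk (34.1% of all genes called), 5 and 3 in young SD bulk (50.1%), 12 and 2 in sorted ACI (65.5%), and 6 and 1 in sorted SD libraries (41.6%). In young SD bulk fractions 8 of 13 genes of the TCA cycle were higher and 1 lower in basal cells, while 46 members were lower.

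TGFBRi was compared with vehicle in sorted single cells at day 0. Members of all 5 complexes rose in both sorts of SD rats, and most of the calls in ACI rats were rises under TMM scaling. In SD basal libraries 63 of 85 members rose and none fell (26.8% of all genes called, 16.4% as higher), and the member median was 0.94 against 0.14 over all genes. In SD luminal libraries 57 rose (28.4%, 14.9% as higher), with medians of 0.85 and 0.08. Far fewer members lay above every vehicle library in CPM: 5 in the basal sort (2.32% of all genes) and 20 in the luminal sort (3.6%).

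By complex, the SD basal sort held rises in 24 of 34 members of complex I, 3 of 8 of complex II, 8 of 9 of complex III, 14 of 18 of complex IV and 14 of 16 of complex V. COX4I1, the common form of the regulatory subunit of complex IV, was at 876, 1059 and 948 CPM in vehicle basal libraries and between 1333 and 1475 CPM in the 6 TGFBRi libraries (1.02 ± 0.16). In the luminal sort it went from 908, 850 and 1042 CPM to 1129 to 1277 CPM (0.74 ± 0.16). No TGFBRi library overlapped the vehicle libraries.

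COX5A rose in the SD basal sort, from 207 to 389 CPM in vehicle to 418 to 618 CPM in TGFBRi libraries (1.29 ± 0.21). UQCRQ, a small complex III subunit, rose by 1.41 ± 0.37 in the basal sort. ATP5MC1, which encodes subunit c of the ATP synthase rotor, was at 151, 209 and 143 CPM in SD luminal vehicle and between 183 and 585 CPM in TGFBRi libraries (1.42 ± 0.36), so that 1 of 6 TGFBRi libraries lay within the vehicle range. COX6B2 also rose in the basal sort (2.05 ± 0.58), from 8.14 to 18.3 CPM to 13.2 to 67 CPM, again with overlap. Fibroblast-like cells numbered 22 to 199 in the 6 TGFBRi basal libraries and 17 in the 1 vehicle basal library counted for that class. COX6B2 was also among the leading genes by fold of an unnamed cluster of 3325 sorted SD cells, in which 3 of 7 basal markers were raised. A share of 0.56 of its cells came from 1 library. The part of either group of cells in the COX6B2 rise was not tested. The isoforms COX4I2 and NDUFA4L2 were called as higher in the basal sort too, on few UMIs. COX4I2 counted 15, 32 and 3 UMIs in vehicle and 42 to 301 in TGFBRi libraries (edgeR adjusted p = 0.056), which is 0.36 to 5.41 against 2.29 to 57.1 CPM. NDUFA4L2 counted 1, 14 and 5 UMIs against 21 to 210 (adjusted p = 0.031), which is 0.15 to 2.37 against 1.15 to 44.5 CPM. The arms overlapped in CPM for both, and no size is given for so few UMIs. The 6 pericyte markers summed to 2.87 to 26.7 CPM in vehicle and 5.40 to 39.4 CPM in TGFBRi libraries. An unnamed cluster of 664 sorted SD cells had SPARCL1, IGFBP7, DES and PLN among its leading genes. In it 5 of 7 vascular smooth muscle and 2 of 6 pericyte markers were raised. The paper describes rare secretory basal cells with high SPARCL1 and IGFBP7 and reports them as enriched after TGFBRi. The part of such cells and of pericytes in these calls was not tested. COX6A2 counted 6, 4 and 1 UMIs against 3 to 98 and was not called (adjusted p = 0.31).

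In ACI rats the changes were smaller and went both ways. In the basal sort 37 of 85 members rose and 5 fell (28.3% of all genes called; member median 0.35 against -0.02), and in the luminal sort 33 rose and 4 fell (25.8%; 0.32 against -0.02). With total UMI counts as library sizes the split was 19 higher and 9 lower in the basal and 9 higher and 10 lower in the luminal sort (35.6% and 33.6% of all genes called). The 37 rises in the basal sort include NDUFA4L2, on 4, 0 and 0 UMIs in vehicle and 4, 4 and 12 in TGFBRi libraries. In CPM 26 members lay above and 13 below every vehicle library in the basal sort (8.84% and 34.8% of all genes), and 13 above and 11 below in the luminal sort (5.12% and 33.4%). COX4I1 went from 914, 984 and 999 CPM to 1333, 1286 and 1267 CPM in the basal sort (0.65 ± 0.09, edgeR adjusted p = 0.0004). NDUFB8, an accessory subunit of complex I, went from 320, 366 and 314 to 478, 442 and 461 CPM (0.69), and COX5A in the luminal sort from 513, 458 and 548 to 668, 741 and 663 CPM (0.71 ± 0.10). Vehicle and TGFBRi libraries did not overlap for any of these 3.

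NDUFS1 fell in both sorts of ACI rats. It was at 41.9, 40.8 and 43.2 CPM in vehicle and 24.3, 21.0 and 20.47 CPM in TGFBRi basal libraries (-0.71 ± 0.10), and at 38.3, 33.7 and 39.4 against 21.6, 21.6 and 18.1 CPM in luminal libraries (-0.60 ± 0.10). SDHAF2, which helps attach FAD to complex II, fell by 0.42 in the basal and fell by 0.46 in the luminal sort on the log2 scale, and NDUFA10L1, listed as a relative of the complex I gene NDUFA10, fell by 1.1 and fell by 0.88. In SD, NDUFS1 differed by -0.25 ± 0.34 in the basal sort (adjusted p = 0.63). The difference between strains in the effect of TGFBRi was tested for all 85 members and called for none in either sort by edgeR (0.222% and 0.00683% of all genes called). At an unadjusted p under 0.05 there were 20 members in the basal and 13 in the luminal sort, where all genes gave 12.9% and 10.6%.

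**Figure D2:**
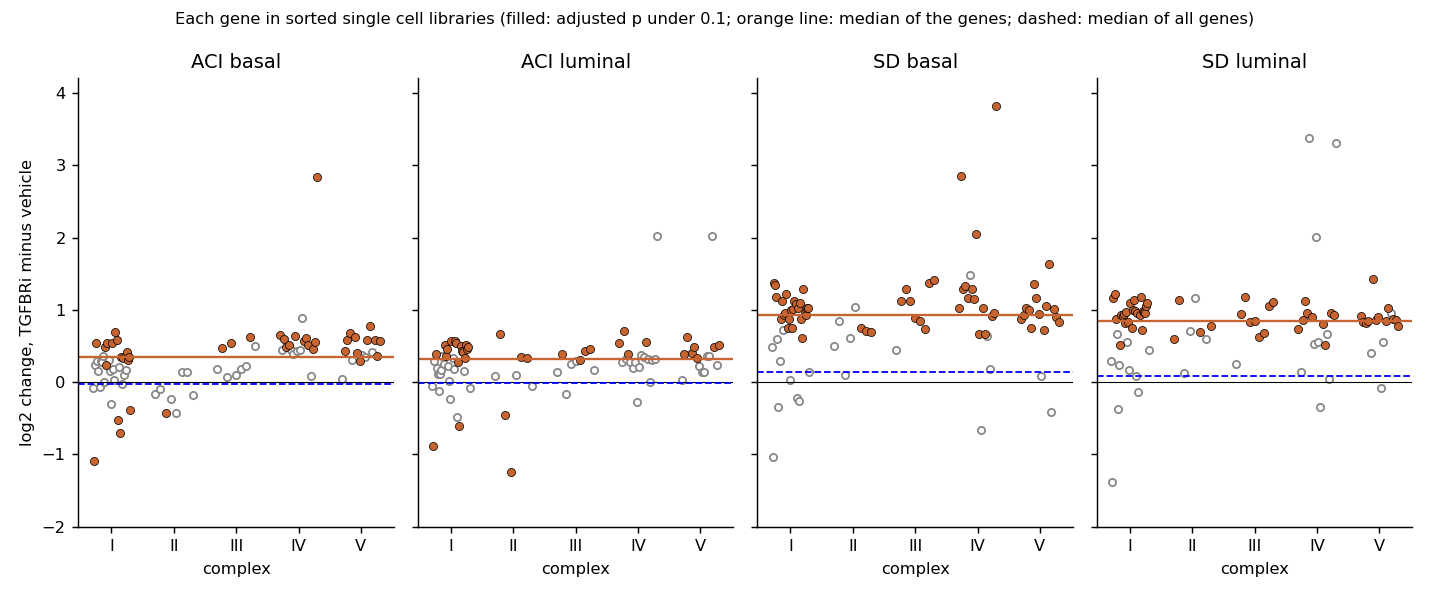
Change of each member with TGFBRi in sorted single-cell libraries at day 0, by respiratory complex (log2, TGFBRi minus vehicle); filled points passed the edgeR threshold, the orange line is the median of the members and the dashed line the median of all genes. The member median is 0.94 and 0.85 in the SD sorts and 0.35 and 0.32 in the ACI sorts, above the median of all genes in each panel.

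These counts depended on scaling and on single rats. With total UMI counts in place of TMM the median of all genes moved to -0.30 in the SD basal and -0.22 in the SD luminal sort, and 30 and 26 members were called, all but 1 as higher (29.6% and 28.4% of all genes called). The member medians were then 0.46 and 0.49. In ACI the same scaling moved the all-gene medians to -0.25 and -0.27. Without vehicle rat 3, 20 members were called in the SD basal and 37 in the luminal sort, and without vehicle rat 1, 29 and 20. Ribosomal protein genes moved with the members: their share of UMIs went from 11.4 to 12.5% in vehicle to 14.5 to 21.9% in the SD basal sort, and from 9.05 to 9.69% to 12.8 to 13.1% in the ACI basal sort. The part of this in the result was not tested.

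The members' own share of UMIs was 1.38 to 2.26% in vehicle and 1.86 to 2.87% in TGFBRi libraries of the SD basal sort, which overlapped, and 1.47 to 1.55% against 1.64 to 2.69% in the luminal sort, which did not. In ACI it was 1.52 to 1.61% against 1.72 to 1.85% in the basal sort and 1.29 to 1.38% against 1.36 to 1.54% in the luminal sort. Luminal progenitor-like cells numbered 733 to 2301 in vehicle and 12 to 2610 in TGFBRi libraries of the SD luminal sort. The share in them was 1.33 to 1.48% against 1.56 to 1.79%, and 1.65 to 1.77% against 1.80 to 2.65% in mature luminal-like cells. Clusters 1, 16 and 19 of the sorted SD cells drew shares of 0.99, 0.94 and 0.93 from a single library each. The part of cell make-up in the rises of the members was not tested. Mitochondrially encoded subunits, the partners of these genes in complexes I, III, IV and V, rose for 9 of 13 in the SD basal sort with none falling, and for 7 with 1 falling in the ACI basal sort, where 26.8% and 28.3% of all genes were called. Cytochrome c and the carriers rose for all 9 genes in SD basal, and for 7 in ACI basal, and glycolysis enzymes rose for 10 of 17 and fell for 1 in SD basal, and rose for 11 and fell for 2 in ACI basal, against the same shares of all genes.

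**Figure D3:**
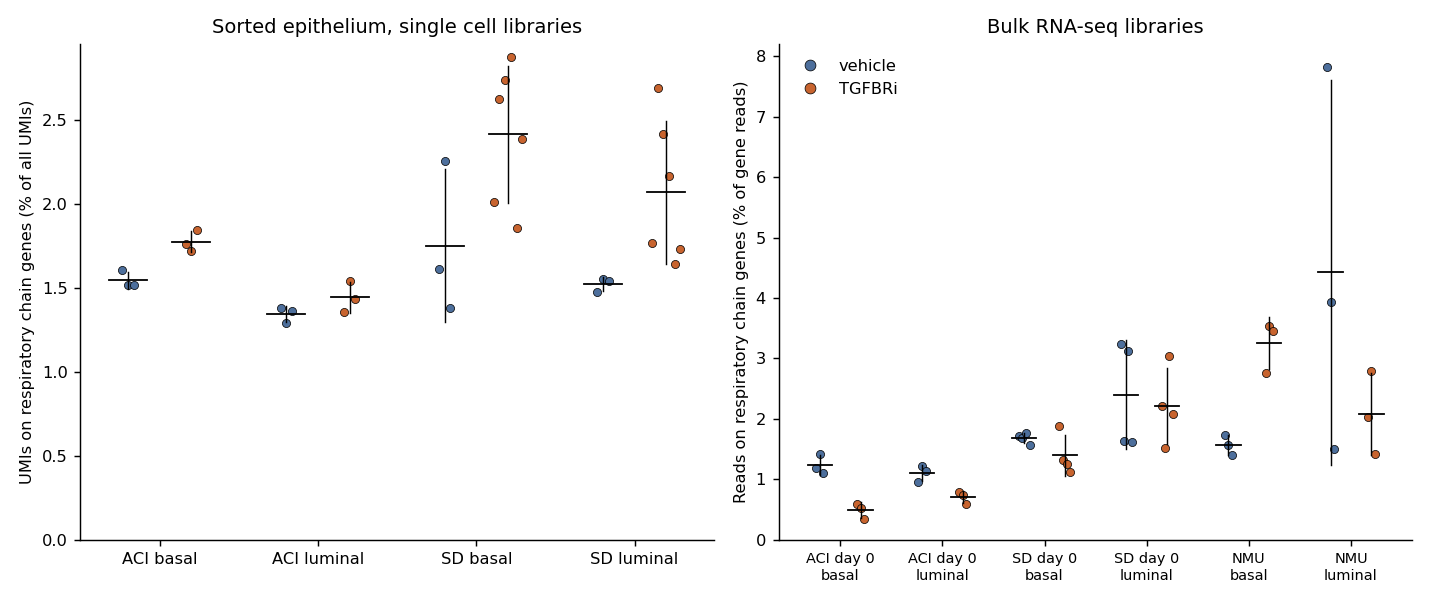
Share of all UMIs (left) or gene reads (right) on the nuclear respiratory chain genes, 1 point per rat with the mean and SD, in vehicle and TGFBRi rats; the NMU groups shown are tumor-bearing. The share is higher with TGFBRi in the SD luminal and ACI basal single-cell sorts and in the NMU basal fraction, lower in the ACI bulk fractions at day 0, and 1 vehicle rat reaches 7.83% in the NMU luminal fraction.

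In bulk fractions at the same day 0, the members lay lower with TGFBRi and not higher. The member median was -1.51 in the young ACI basal fraction against 0.30 over all genes, and 66 of 79 members were below every vehicle rat (15.7% of all genes). Limma called 1 of them, ATP5F1A, subunit alpha of the ATP synthase head (3.34% of all genes called). At an unadjusted p under 0.05 there were 31 members, against 25.7% of all genes. It was at 12409, 15377 and 11683 in vehicle and 5407, 5006 and 3723 in TGFBRi rats (-1.49 ± 0.33, adjusted p = 0.029). With only the day 0 groups in the fit 64 members were called, all lower (10.7% of all genes called, 6.57% as lower). Without either TGFBRi rat 1 or 2 or vehicle rat 1 or 2 none was, and without TGFBRi rat 3, 2 were. With edgeR on recovered reads no member was called, and with DESeq2 more were.

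COX4I1 was at 2757, 2722 and 1847 in vehicle and 1091, 1025 and 886 in TGFBRi basal samples, and COX5A at 2188, 2607 and 1787 against 1071, 1060 and 734. The groups did not overlap, and neither gene was called. The member share of gene reads was 1.11 to 1.42% against 0.35 to 0.60%, and that of ribosomal protein genes 1.76 to 2.28% against 0.82 to 1.01%. The TGFBRi basal libraries held 6562769, 4194912 and 15136358 reads, and the 5 fibroblast markers summed to 3462 to 8893 CPM of reads in vehicle and 2663 to 32972 in TGFBRi basal samples. In the luminal fraction the member median was -0.75 against 0.21 and 66 members lay below every vehicle rat (14.1% of all genes), and limma called none (1.01% of all genes called, and 0 members at an unadjusted p under 0.05 against 19.8% of all genes). With only the day 0 groups in the fit, 55 were called, all lower (11.6% of all genes called, 6.13% as lower).

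At day 7 and day 14 no member was called by limma in any fraction (at most 0.00639% of all genes called). At an unadjusted p under 0.05 the counts ran from 0 to 5 of 79 members, the 5 in the luminal fraction at day 7 (7.72% of all genes), with 1.91% to 8.35% of all genes over these fractions and days. DESeq2 called 1 in the luminal fraction at either day. The member medians at day 7 were -0.79 in the basal and -0.88 in the luminal fraction, and without day 7 vehicle rat 3, the rat with conflicting labels, they were -0.21 and 0.01. At day 14 they were -0.12 and 0.49. The effect at day 0 was tested against that at day 7 and at day 14, and limma called no member in any fraction (at most 0.19% of all genes called), so the effect was not shown to differ between the days. In CD45+ cells 3 and 4 members had an unadjusted p under 0.05 (10.5% and 15.9% of all genes, against day 7 and day 14), as did 0 and 5 in the basal (5.87% and 12%) and 0 and 0 in the luminal fraction (7.36% and 8.39%).

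In young SD rats none was called in any fraction (0% of all genes), with medians of -0.28 in the basal, -0.18 in the luminal and -0.39 in the CD45+ fraction (-0.02, -0.08 and 0.12 over all genes). In the basal fraction 15 members had an unadjusted p under 0.05 (3.93% of all genes), and in the luminal and CD45+ fractions 1 each (1.94% and 3.64%). COX4I1 in SD basal samples was at 3235 to 3337 in the 4 vehicle rats, 3111 and 2938 in the 2 weak responders and 2482 and 2688 in the 2 strong responders. The other fractions did not show this order. In luminal samples it was at 3921 to 13604 in vehicle rats, 7168 and 3977 in weak and 14755 and 10119 in strong responders. In CD45+ samples it was at 3513 and 5479 in weak and 9154 and 3071 in strong responders. Bulk and single-cell libraries came from different protocols and were not tested against each other.

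In CD45+ cells of young ACI rats at day 0, 1 member fell (2.85% of all genes called): NDUFA4L2 was at 148, 86.5 and 69.4 in vehicle and 11.1, 5.61 and 2.21 in TGFBRi rats (-3.94 ± 0.68). The groups did not overlap. The 6 pericyte markers summed to 49.9 to 86.4 CPM of reads in the same vehicle and 13.1 to 14.9 in the same TGFBRi samples, and fibroblast markers to 12479 to 32126 against 883 to 7182. Their part in the result was not tested. With only the day 0 groups in the fit no member was called, and without vehicle rat 3, 4 were.

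Levels of the isoforms were compared across classes of whole-gland cells. Classes were clusters named from fixed markers, with the members left out of the clustering, so levels between classes are a description. Cluster 25, of 1079 cells, is given by its number and counted as a class: all 7 vascular smooth muscle markers were raised in it, but none was among its 10 leading genes by fold, which held XIRP1, PLN and MYL1, the last a skeletal muscle marker. COX4I2 was at 100, 187 and 233 CPM in pericyte-like cells of the 3 vehicle rats and 215, 165 and 229 CPM in cluster 25. NDUFA4L2 was at 98.8, 151 and 335 CPM and 204, 144 and 378 CPM in the same classes. In the other classes the medians were at most 6.06 CPM for COX4I2 and 12.8 CPM for NDUFA4L2. The ranges of the 2 high classes overlapped. Both genes were also among the 10 leading genes by fold of a cluster of 1389 cells with pericyte and endothelial markers. That cluster was left unnamed and is outside this comparison. COX7A1 held 22 UMIs over all 13 classes of the vehicle rats and was not ranked, nor was COX8B, whose median was 5.06 CPM in macrophage-like cells and at most 0.53 CPM in the other classes.

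COX6B2 was at 28.5, 45.6 and 32.9 CPM in basal-like and 41.6, 36 and 24.5 CPM in fibroblast-like cells, overlapping with pericyte-like cells (25.2 to 36.3 CPM), and its median was 0.79 CPM in mature luminal-like cells. COX6A2 varied widely between rats: it was at 81.8, 17.6 and 0.6 CPM in dendritic-like and 37.8, 23.8 and 0.8 CPM in macrophage-like cells. COX5A was highest in luminal progenitor-like cells (1101 to 1315 CPM), followed by mature luminal-like cells (704 to 775 CPM), with no overlap. Basal-like (604 to 683 CPM) and lymphatic endothelial-like cells (563 to 690 CPM) came next and overlapped each other, and the median was lowest in pericyte-like cells (387 CPM).

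NDUFA4, a subunit of complex IV, was highest in mature luminal-like cells (947 to 1145 CPM), overlapping with basal-like cells (899 to 1027 CPM), and lowest in cluster 25 (median 252 CPM). NDUFA5, an accessory subunit of complex I, was at 1076, 1672 and 2798 CPM in cluster 25 (lowest, median and highest rat), at 812, 1117 and 1408 CPM in pericyte-like cells and at a median of 142 CPM in luminal progenitor-like cells. Cluster 25 held only 13 to 347 cells a rat. Over all 86 members, with COX7A1 and COX8B kept in this tally, the median was highest in cluster 25 for 34 and in mature luminal-like cells for 23.

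**Figure D4:**
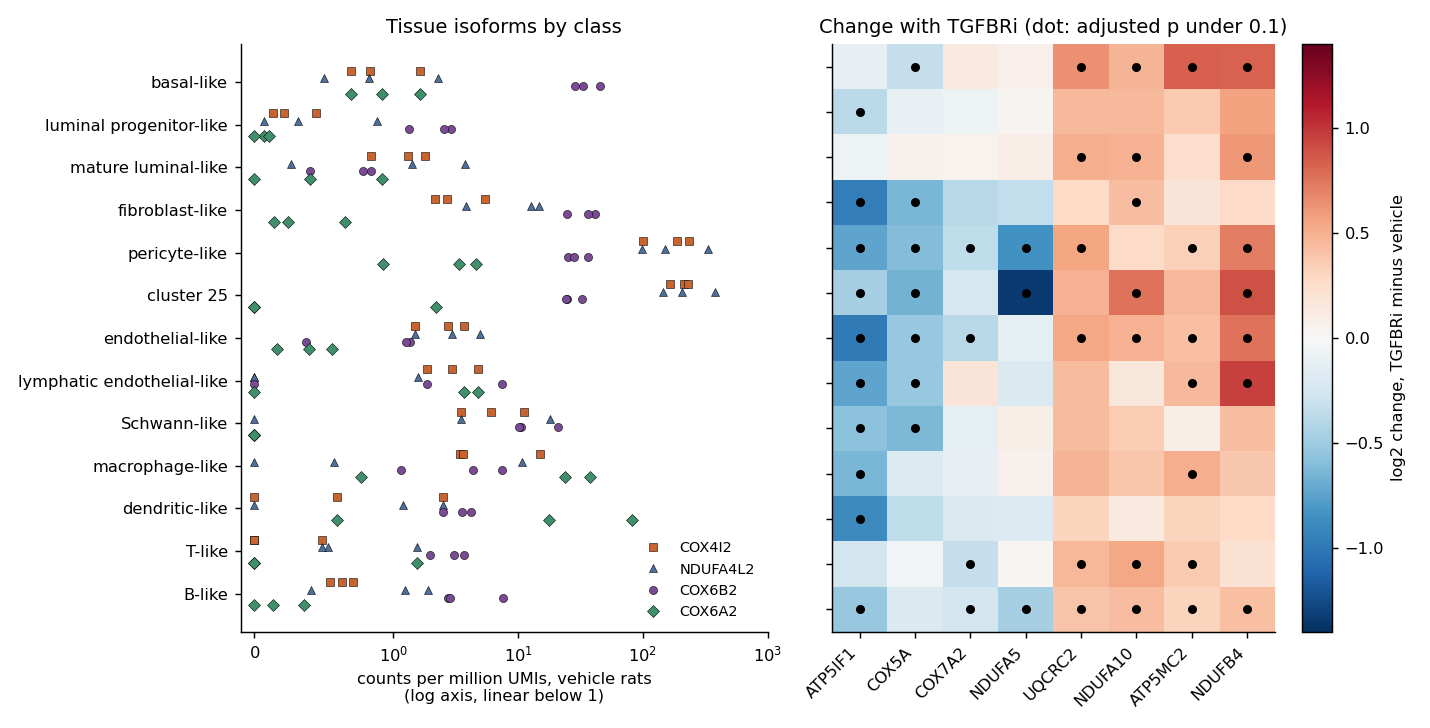
Left, levels of 4 restricted complex IV isoforms in each class of whole-gland cells, 1 point per vehicle rat (CPM, log axis): COX4I2 and NDUFA4L2 stand highest in pericyte-like cells and cluster 25. Right, log2 change with TGFBRi for 8 members across the 13 classes, with dots where edgeR called the change: ATP5IF1 and COX5A fall in 10 and 7 classes, and NDUFB4, ATP5MC2 and NDUFA10 rise in 7 each.

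With TGFBRi, 64 of the 86 members were called in 1 or more of 13 whole-gland classes and 3 of them in both directions. That is 74.4%, beside 69.8% of all genes tested in any class. Of the 80 members tested in every class 62 were called in 1 or more (77.5%), beside 88.9% of all such genes. The classes come from the same 9 rats. Mature luminal-like cells had 28 rises and no fall among 84 members (27.5% of all genes called, member median 0.25 against 0.03), of which 17 were in complex I and none in complex IV. Endothelial-like cells had 26 rises and 4 falls (31.9%, median 0.16 against 0.00), 19 of the rises in complex I. With total UMI counts as library sizes more members were called in this class. Basal-like cells had 18 rises and 4 falls (45.3%). This class joins clusters 11 and 13, which the arms fill differently: cluster 11 held 90.1% of the basal-like cells of vehicle and 12.7% of those of TGFBRi rats, and cluster 13 the others. B-like cells were likewise mostly in cluster 8 in vehicle (70.5%) and mostly in cluster 9 in TGFBRi rats (56.5%). In the other classes the same cluster held most cells of both arms. Changes in basal-like and B-like cells are therefore between arms that lie in different clusters. Luminal progenitor-like cells also shifted between their clusters: cluster 17 held 24.96% of these cells in vehicle and 43.72% in TGFBRi rats, and cluster 2 the others. The median was 885 UMIs a cell in cluster 17 and 7623 in cluster 2. The part of this shift in the changes of that class was not tested. Without vehicle rat 1, 18 members were called in endothelial-like and 9 in basal-like cells, where 14 were called without vehicle rat 2 and 12 without vehicle rat 3.

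Cluster 25 (10 rises, 4 falls, 17.3% of all genes called), lymphatic endothelial-like (12 and 4, 15.0%), pericyte-like (8 and 7, 25.4%) and B-like cells (7 and 11, 16.1%) had fewer calls. T-like cells had 4 and 2 (8.68%), macrophage-like 4 and 1 (3.79%), fibroblast-like 1 and 4 (29.2%), Schwann-like 1 and 2 (10.9%), dendritic-like 0 and 2 (5.68%), and luminal progenitor-like cells 1 and 1 (26.7%). With total UMI counts as library sizes the balance moved toward rises in cluster 25 (29 and 3, with 19.2% of all genes called), pericyte-like (31 and 4, 26.3%), macrophage-like (32 and 1, 6.97%), fibroblast-like (9 and 2, 33.3%), dendritic-like (9 and 1, 7.94%), luminal progenitor-like (8 and 0, 27.7%) and B-like cells (5 and 3, 14.1%). Single rats moved these counts. Without vehicle rat 3, 26 members were called in cluster 25 (20.6% of all genes), 27 in pericyte-like (34.8%), 13 in T-like (11.7%), 11 in macrophage-like (10.9%), 10 in fibroblast-like (36.7%), 6 in dendritic-like (12.2%) and 6 in lymphatic endothelial-like cells. Without vehicle rat 2, 3 were called in cluster 25, 20 in luminal progenitor-like (26.4% of all genes), 9 in lymphatic endothelial-like and 1 in macrophage-like cells. Without vehicle rat 1, 5 were called in cluster 25, 6 in lymphatic endothelial-like, 6 in dendritic-like (8.38% of all genes), 3 in macrophage-like, 2 in T-like, 1 in luminal progenitor-like and 1 in Schwann-like cells. In B-like cells 8, 11, 6 and 7 were called without TGFBRi rats 1, 3, 5 and 6, and in lymphatic endothelial-like cells 9, 9, 7 and 9 without TGFBRi rats 3, 4, 5 and 6. In cluster 25, 9 and 7 were called without TGFBRi rats 3 and 4, in fibroblast-like cells 3 without TGFBRi rat 1 or 2, in dendritic-like cells 1 without TGFBRi rat 1, 3, 4 or 5, and in macrophage-like cells 2 or 3 without any 1 of the 6 TGFBRi rats. In luminal progenitor-like cells 8 were called without TGFBRi rat 1 (27.5% of all genes), 4 without rat 3, and 1 without TGFBRi rat 2, 4 or 6.

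A pair of members fell across many classes. ATP5IF1, which blocks ATP synthase from running backward, fell in 10 classes and was negative in all 13, also under total UMI scaling, where 8 were called. In endothelial-like cells it was at 542, 808 and 851 CPM in vehicle and between 379 and 475 CPM in 6 TGFBRi rats (-0.99 ± 0.13). In fibroblast-like cells it was at 492, 660 and 688 CPM against 262 to 472 CPM (-0.97 ± 0.18). The arms did not overlap in either class. In the sorted SD libraries no member was called as lower with TGFBRi. In the sorted ACI libraries ATP5IF1 was at 294 to 314 CPM in vehicle and 282 to 371 CPM with TGFBRi in the basal sort. In the luminal sort it was at 267 to 300 against 237 to 346 CPM, so the arms overlapped in both.

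COX5A fell in 7 classes, and in 7 under total UMI scaling as well. In fibroblast-like cells it was at 467, 482 and 482 CPM in vehicle and 305 to 412 CPM in TGFBRi rats (-0.64 ± 0.14), and in cluster 25 at 408, 482 and 508 CPM against 264 to 367 CPM (-0.66 ± 0.17). In basal-like cells it fell from 604 to 683 CPM to 384 to 595 CPM (-0.34 ± 0.14, edgeR adjusted p = 0.076, with the arms mostly in clusters 11 and 13), whereas it rose in the sorted SD basal libraries. In mature luminal-like cells it was at 704 to 775 CPM in vehicle and 779 to 876 CPM in TGFBRi rats and was not called.

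NDUFA5 fell in 3 classes, which include the 2 where its level was highest, with log2 differences of -1.34 ± 0.20 in cluster 25 and -0.85 ± 0.14 in pericyte-like cells. In these the TGFBRi rats lay between 619 and 1048 CPM and between 642 and 786 CPM. The third was B-like cells (-0.47 ± 0.13, edgeR adjusted p = 0.048). In basal-like cells NDUFA5 was at 154 to 190 CPM in vehicle and 112 to 236 CPM in TGFBRi rats. NDUFB4, an accessory subunit of complex I, rose in 7 classes, from 70.8, 86.2 and 100.8 CPM to 150 to 182 CPM in endothelial-like cells (0.76 ± 0.13). ATP5MC2, another gene for ATP synthase subunit c, and NDUFA10 rose in 7 classes each and UQCRC2, a core subunit of complex III, in 6. SDHAF4, a complex II assembly factor, rose by 1.44 ± 0.29 in basal-like cells, from 3.94 to 9.21 CPM to 12.6 to 23.8 CPM.

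COX4I2 differed by 0.69 ± 0.29 in pericyte-like cells (edgeR adjusted p = 0.12) and NDUFA4L2 by -0.09 ± 0.31 (adjusted p = 0.89), neither past the threshold. Each was called in 1 other class, at levels of a few CPM. COX4I2 was at 1.49, 2.74 and 3.66 CPM in vehicle and 3.06 to 12.3 CPM in TGFBRi rats in endothelial-like cells (1.33 ± 0.42, edgeR adjusted p = 0.034), which are 45 and 171 UMIs in all. NDUFA4L2 was at 0.83, 0.50 and 2.30 against 0.13 to 0.63 CPM in basal-like cells (edgeR adjusted p = 0.056), which are 26 and 11 UMIs. The arms overlapped in both. In B-like cells COX4I2 was at 0.55 to 0.71 CPM in vehicle and 0.15 to 1.00 CPM in TGFBRi rats, and NDUFA4L2 at 0.41 to 1.90 and 0 to 1.11 CPM. The levels of NDUFA4L2 in basal-like and B-like cells thus overlapped, and their source was not tested. Pericyte-like cells held COX4I2 at 212 to 517 CPM in TGFBRi rats. A cluster of 1389 cells with markers of both pericytes and endothelium was left unnamed, and its cells held 2.81 times the median UMIs of their libraries. The part of such cells in the endothelial-like COX4I2 level was not tested. Of the other genes of the pathway in mature luminal-like cells, 7 of 14 complex I assembly factors rose and 2 fell, and 1 of 13 mitochondrially encoded subunits rose (27.5% of all genes called). In endothelial-like cells (31.9%) 6 complex I assembly factors rose and 2 fell, while 5 of 9 genes of cytochrome c and the carriers and 8 of 17 glycolysis enzymes fell.

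The strains were set side by side in vehicle rats. In sorted basal libraries 9 members were higher and 2 lower in SD than in ACI (13.1% of all genes called), and in luminal libraries 8 were higher (15.6%). COX7C, a small complex IV subunit, was at 322, 273 and 307 CPM in ACI and 597, 890 and 509 CPM in SD basal libraries (1.31 ± 0.26), and at 358, 318 and 344 against 639, 526.4 and 761 CPM in luminal libraries (1.12). ATP5ME, a membrane subunit of ATP synthase, differed by 1.45 and 1.37, and NDUFA5 by 1.01 and 0.96. Strain, age at dosing and experiment cannot be told apart. In the basal sort 2 members were called without ACI vehicle rat 2 or without ACI rat 3, 4 without SD rat 2 and 7 without SD rat 1, and in the luminal sort 4 without ACI rat 2. In the bulk luminal fractions COX7C ran from 208 to 284 CPM of reads in ACI and 322 to 1070 in SD vehicle rats.

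After NMU, members rose with TGFBRi in the basal fraction of tumor-bearing rats: 33 of 78 were called higher and none lower (1.31% of all genes called), the member median was 1.16 against -0.25, and 63 members lay above every vehicle rat (9.78% of all genes). Complex I held 16 of the rises, complex V 8, complexes III and IV 4 each and complex II 1. NDUFA11, an accessory subunit of complex I, was at 1575, 1607 and 1827 in vehicle and 4383, 10608 and 8261 in tumor-bearing TGFBRi rats (2.12 ± 0.31, limma adjusted p = 0.0157). ATP5PO, in the stalk of ATP synthase, was at 3156, 2965 and 2830 against 8666, 13866 and 13290 (1.97 ± 0.24).

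COX7A2, the common form of a small complex IV subunit, was at 1321, 1250 and 1204 against 4908, 3796 and 6786 (2.00 ± 0.29). COX5A overlapped, at 3135, 3249 and 2865 against 3306, 5040 and 3012. Tumor-free TGFBRi rats lay near or below vehicle, with NDUFA11 at 979, 1234 and 1526 and no member called by limma (0% of all genes called, and 1 member at an unadjusted p under 0.05 against 1.22% of all genes). Without any 1 of the 3 vehicle rats no member was called, without TGFBRi rat 2, 15 were and without rat 3, 11. With no filter on low values fewer members were called in tumor-bearing rats, and with DESeq2 more were. Ribosomal protein genes moved along, from 2.95 to 3.55% to 4.74 to 6.41% of gene reads, and the members' share went from 1.41 to 1.73% to 2.76 to 3.54%. The part of this in the result was not tested.

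In the NMU luminal fraction the members lay lower with TGFBRi, with medians of -1.22 in tumor-bearing and -1.48 in tumor-free rats (-0.32 over all genes in the latter), and limma called none (0.212% and 0.948% of all genes called). At an unadjusted p under 0.05 there were 25 and 49 members, against 16.2% and 19% of all genes. The vehicle rats differed among themselves: COX5A was at 27905, 32349 and 7670, the member share was 7.83%, 3.94% and 1.51%, and mature luminal markers summed to 5066, 7960 and 16259 CPM of reads. Without vehicle rat 3, limma called 42 and 51 members, all lower, with 10.8% and 14.3% of all genes called (6.38% and 8.37% as lower). With all rats DESeq2 called 35 and 45, all lower, with 7.62% and 9.65% of all genes called (4.53% and 6.1% as lower). Both comparisons share the vehicle rats. In CD45+ cells limma called none (at most 0.015% of all genes), with 0 members at an unadjusted p under 0.05 in either comparison (7.6% of all genes in tumor-bearing and 3.04% in tumor-free rats). In the sorted tumors limma called none (0% of all genes), with 1 member in each fraction at an unadjusted p under 0.05, against 6.65% of all genes in CD45+ and 2.15% in EPCAM+ cells. In EPCAM+ cells TGFBRi rat 3 stood apart for many members. ATP5MG was at 41902 in it, at 6821 and 3594 in TGFBRi rats 1 and 2 and at 2657 to 5747 in vehicle rats. ATP5F1A was lowest in it, at 5999 against 14258 and 7817.

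Parity was compared in adult ACI rats. In TGFBRi rats 6 of 82 members fell in parous against virgin basal cells (12.1% of all genes called, 3.34% as lower, member median -0.36 against 0.24). COX4I1 was at 5054, 9581, 11865 and 9769 in virgin and 3447, 3245, 3337 and 3792 in parous rats (-1.33 ± 0.23, limma adjusted p = 0.0025). UQCRC1, a core subunit of complex III, was at 6907, 9035, 13481 and 15599 against 5630, 5537, 5621 and 5716 (-0.93). Parous values were close together and below every virgin rat in both genes. The log2 differences were -1.12 for NDUFB10, -0.86 for NDUFB8, -0.74 for COX5A and -0.72 for COX7A2L. With only the groups compared in the fit fewer members were called, and with DESeq2 more were.

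In vehicle rats COX4I1 was at 4007 to 6281 in virgin and 4310 to 6135 in parous basal cells, and limma called no member in any fraction (0% of all genes). At an unadjusted p under 0.05 there were 12 in the luminal fraction (9.56% of all genes) and 0 in the basal and CD45+ fractions (3.04% and 1.53%). The effect of TGFBRi on COX4I1 in parous against virgin rats differed by -1.34 ± 0.33 (adjusted p = 0.055), short of the threshold, and limma called no member there (1.04% of all genes called, and 4 members at an unadjusted p under 0.05 against 16.9% of all genes). Leaving out single rats moved the 6 calls to between 1 and 16, the 16 without virgin TGFBRi rat 1 (all lower, as were 5.38% of all genes), and leaving out virgin TGFBRi rat 3 or 4, or parous rat 1, 2 or 4, left 1, and parous rat 3, 2.

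In virgin basal cells TGFBRi against vehicle gave 2 rises (8.73% of all genes called), and none with only the groups compared in the fit. COX4I1 rose by 0.80 ± 0.23 (limma adjusted p = 0.041), and NDUFA4L2 went from 111 to 264 in vehicle to 457 to 749 in TGFBRi rats (1.66 ± 0.47, adjusted p = 0.038). The 6 pericyte markers summed to 78.2 to 248 CPM of reads in vehicle and 39.1 to 162 in TGFBRi rats, which overlapped. No member was called without vehicle rat 2 or 3 or TGFBRi rat 3, and 1 without vehicle rat 4 or TGFBRi rat 1. Elsewhere in adult rats limma called no member with TGFBRi: 0.00744% of all genes were called in parous basal, 0.0281% in parous luminal and 0.022% in virgin CD45+ cells, with 6, 6 and 0 of 82 members at an unadjusted p under 0.05, against 5.04%, 13% and 5.5% of all genes. In virgin CD45+ cells TGFBRi rat 2 stood apart for many members. NDUFB8 was at 21289 in it, at 2379 and 3401 in TGFBRi rats 1 and 4 and at 4192 to 4843 in vehicle rats. ATP5F1B was lowest in it, at 10504 against 22311 and 25643.

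**Figure D5:**
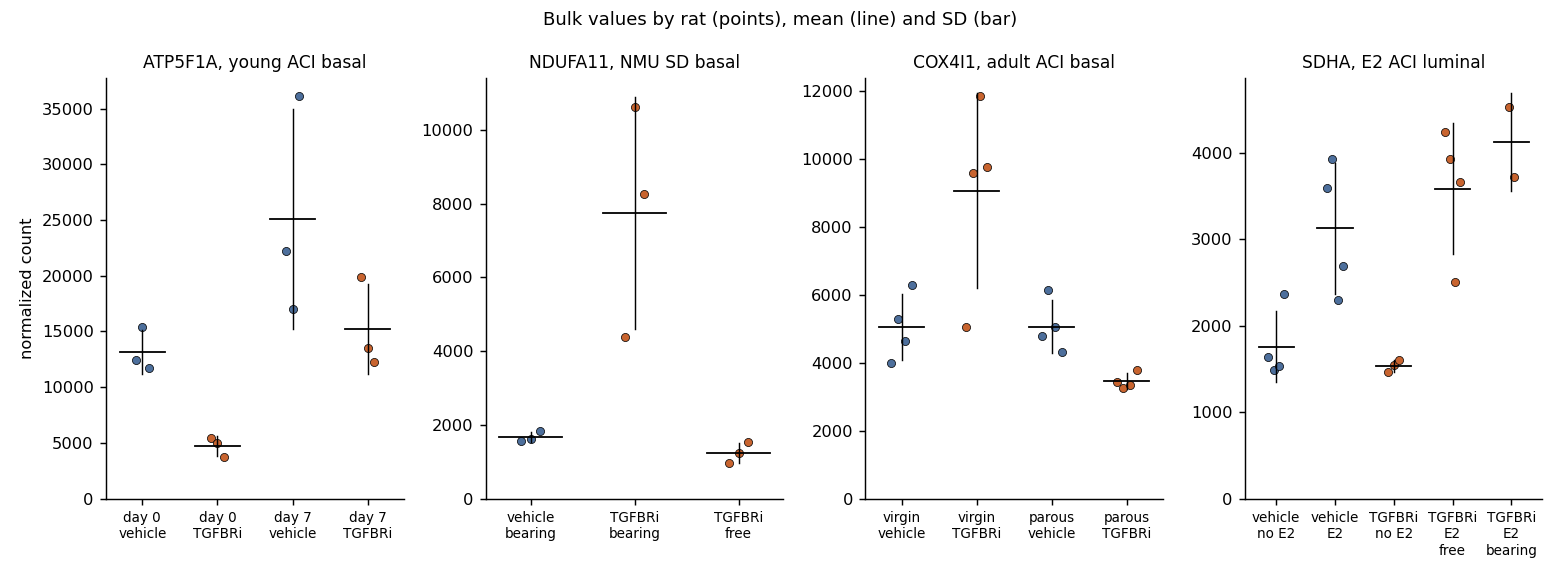
Normalized counts of 1 member in each of 4 bulk comparisons, 1 point per rat with the mean and SD (bearing and free refer to tumors). ATP5F1A is lower with TGFBRi at day 0, NDUFA11 is higher in tumor-bearing TGFBRi rats, COX4I1 is low and tightly grouped in parous TGFBRi rats, and SDHA is higher with E2 in TGFBRi rats.

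E2 was compared in luminal and CD45+ cells of ACI rats. In luminal cells of TGFBRi rats 3 of 83 members rose in tumor-free rats with E2 against rats without it (3.61% of members, with 4.58% of all genes called and 2.52% as higher). SDHA, the catalytic subunit of complex II, was at 1462, 1546 and 1605 without and 4240, 3934, 2513 and 3671 with E2 (1.20 ± 0.25, limma adjusted p = 0.0116). NDUFS1 was at 509, 371 and 523 against 1428, 1187, 810 and 1460 (1.36 ± 0.32, adjusted p = 0.0255), and ATP5MC1 at 2066, 3334 and 1728 against 5196, 5248, 3764 and 5141 (1.07 ± 0.28, adjusted p = 0.041). Rats with and without E2 did not overlap for any of them.

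In vehicle rats SDHA was at 1641, 1492, 1534 and 2366 without and 3595, 3926, 2305 and 2694 with E2, where 1 rat with E2 lay just below the highest without. Limma called no member (1.48% of all genes called), with 9 at an unadjusted p under 0.05 against 14.5% of all genes, and DESeq2 called SDHA alone. Limma called none for the difference of the E2 effects (0% of all genes), with 0 members at an unadjusted p under 0.05 in either fraction, against 4.26% of all genes in luminal and 5.04% in CD45+ cells. TGFBRi against vehicle was called by limma for no member. At an unadjusted p under 0.05 there was 1 member in CD45+ cells without E2 (2.45% of all genes) and 1 in luminal cells of tumor-bearing rats (6.35%). There were 0 in tumor-free and tumor-bearing CD45+ cells with E2 (6.27% and 8.35%), and 0 in luminal cells without E2 (3.18%) and of tumor-free rats with E2 (6.09%). Of all genes, 0.0147% were called in luminal cells without E2 and also in tumor-free rats with E2, 0.00736% in luminal and 0.0223% in CD45+ cells of tumor-bearing rats. Without tumor-bearing TGFBRi rat 2, 13 members were called in the last of these (13.2% of all genes), with 1 rat left in that arm. In CD45+ cells NDUFA13, an accessory subunit of complex I, was at 1465, 1439 and 1367 without and 2313, 2708, 3346 and 1953 with E2 in TGFBRi rats (0.83 ± 0.24, limma adjusted p = 0.048, with 5.58% of all genes called). In vehicle rats limma called none in CD45+ cells (0.282% of all genes, and 2 members at an unadjusted p under 0.05 against 12.1% of all genes). Leaving out single rats moved the luminal count to between 1 and 6 (6 without rat 2 of those without E2, where 2.61% of all genes were called, and 1 without rat 1, 2 or 4 of those with E2 or rat 3 of those without), and NDUFA13 was lost in 6 of 7 such fits.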

How the data were processed

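The authors aligned bulk reads (SMARTer v4 libraries) with STAR 2.5.1b to rn6, counted them with HTSeq without strand against refGene, and deposited signal values that are counts divided by DESeq2 size factors; whole reads were recovered for 2526805 of 2526805 values tested (within 0.001 reads). Single-cell values were deposited as UMI counts from Cell Ranger 4.0.0 (sorted, 3' v3) and 7.0.0 (whole gland, 5' HT v2); the sorted tables hold cells filtered by the authors. Rows naming no gene were left out (up to 42.5% of a library). Here bulk values were tested with limma 3.58.1 (trend and robust variances, log2(value + 1), genes summing to at least 10), and UMI counts, summed per library or per rat and class of at least 10 cells, with edgeR 4.0.16 (TMM, genes with at least 10 counts). Classes were Leiden clusters from scanpy 1.11.5 named from fixed markers, with no doublet caller. DESeq2 1.42.0, other scalings, pseudocounts, filters, groups and left-out rats were alternatives. Fractions of 1 rat are paired by the labels, and deviations of the same rat correlated with a median r of 0.40, 0.09, 0.11 and 0.36 in young ACI, young SD, sorted ACI and sorted SD. Many members have processed pseudogenes that could share reads. An E2 rat in 4 parts was averaged. Named genes were the 5 called members with the largest change each way (mean at least 10), a fixed set of isoforms and 1 core subunit per complex; others were chosen after their values were seen. The strain interaction was added after seeing the data. Members and lists were chosen with earlier results of these data known. The tests were checked on simulated data for the young SD basal fraction and the SD basal sort alone. There all genes had the same spread and were drawn independently, so members moving together in single rats were not covered. Labels disagreed within 3 libraries (treatment in 2 of 1 rat, day in 1) and the characteristics were followed.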

Additional observations from a re-analysis of the deposited data

How the results depend on the processing

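Where any member was called, the count of called members moved by no more than 1.5 times under 246 of 378 alternatives, and where none was called, members were called under 20 of 789. The causes were not tested. With DESeq2 the counts became 5 (E2, TGFBRi luminal), 1 (E2, vehicle luminal), 54 (NMU basal, tumor-bearing), 35 and 45 (NMU luminal, tumor-bearing and tumor-free), 11 (parity, TGFBRi basal), 1 each for the parous against virgin effect in basal cells, TGFBRi in parous luminal cells and parity in vehicle luminal cells, 28, 10, 10 and 7 in B-like, T-like, fibroblast-like and luminal progenitor-like cells, 3 and 4 in young ACI CD45+ and basal cells at day 0, and 1 each for day 0 against day 7 or 14 in CD45+ cells and for luminal cells at day 7 and 14. With edgeR on recovered reads they were 1 and 26 in NMU luminal cells and 0 in young ACI basal cells at day 0, where TMM scaling or a pseudocount of 5 gave 3. A mean of at least 50 gave 3 for the young ACI lineage, and no filter gave 18 in NMU basal cells. With only the groups compared in the fit, the counts were 64, 55 and 0 in young ACI basal, luminal and CD45+ cells at day 0, 0 in adult virgin basal cells, 2 for parity in TGFBRi basal cells and 1 in tumor-free NMU luminal cells.

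With total UMI counts as library sizes the counts were 19 in the ACI luminal and 30 and 26 in the SD basal and luminal sorts, and 8 (B-like), 10 (dendritic-like), 47 (endothelial-like), 11 (fibroblast-like), 8 (luminal progenitor-like), 33 (macrophage-like), 35 (pericyte-like) and 32 (cluster 25). Keeping genes with at least 1 count gave 10 in lymphatic endothelial-like and 3 in macrophage-like cells, and leaving out the 5% of cells with the most UMIs gave 4 in luminal progenitor-like cells. With the rat as a replicate block, 19 members were called for the young ACI lineage and 27 for the sorted SD lineage, and the block moved no other count by over 1.5 times.

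Leaving out 1 rat moved the counts to between 0 and 1 (E2, TGFBRi CD45+), 0 and 13 (tumor-bearing E2 CD45+), 1 and 6 (E2, TGFBRi luminal), 0 and 1 (E2, vehicle luminal), 20 and 54 (young SD lineage), 0 and 49 (NMU basal), 0 and 42 or 51 (NMU luminal), 0 and 3 (adult virgin basal), 0 and 1 (parous against virgin effect), 1 and 16 (parity, TGFBRi basal), 25 and 33 (sorted ACI lineage), 5 and 6 (sorted SD lineage), 20 and 66 or 65 (SD basal and luminal sorts), 2 and 15 or 4 and 8 (strain, basal and luminal), 1 and 4 (young ACI CD45+ at day 0) and 0 and 2 (young ACI basal at day 0). In whole glands the ranges were 6 to 22 (B-like), 1 to 4 (Schwann-like), 2 to 13 (T-like), 9 to 32 (basal-like), 1 to 6 (dendritic-like), 18 to 36 (endothelial-like), 3 to 10 (fibroblast-like), 1 to 20 (luminal progenitor-like), 6 to 16 (lymphatic endothelial-like), 1 to 11 (macrophage-like), 10 to 27 (pericyte-like) and 3 to 26 (cluster 25). Where an arm was left with 1 rat, that rat was assumed to vary like the others. In sorted cells the restricted isoforms rest on few UMIs, and small classes hold few cells.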
